A study of Mus musculus with 26 samples.

Results

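The genes described here are 8 members of the secreted layer of TGF-beta family signalling, namely the ligand genes Gdf3, Bmp4, Inhbb, Tgfb1, Bmp7 and Tgfb2 and the antagonist genes Fst and Nog. They were taken by symbol from each of 6 deposited expression tables of mouse embryonic stem cells, and all 8 were listed in every table, among 25239 genes in each of the tables of untreated cells and 12928 genes shared by the tables of treated cells.

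Each group held 2 RNA-seq libraries, 26 in all, of cells labelled C57BL/6 that were grown in serum medium on gelatin. A count table held untreated wild-type (WT) cells and the HMCES-knockout (HMCES-KO) lines KO7 and KO8, with 2 libraries of each. Untreated cells of both genotypes, with 2 libraries of each, were also in a TPM table, whose columns are called CCE and K8 and whose knockout line the labels do not name. Each of 4 further TPM tables held both genotypes after a treatment of 2 h. The agents were the ligands activin A (at 50 ng/ml) and BMP4 (at 10 ng/ml) and the inhibitors SB431542 (at 10 µM) and LDN193189 (at 50 nM). There 1 HMCES-KO library came from the line HMCES-KO1 and 1 from HMCES-KO2. TPM corrects read numbers for the length of the gene and sets the total of a library to 1000000, so it allows levels to be compared between genes. Which of KO7 and KO8 is HMCES-KO1, how the lines were made and whether each is 1 clone are not given in the sources used here, and no treated table has an untreated or vehicle group of its own. HMCES is a protein that binds abasic sites in DNA, and the series asked how its loss affects Nodal/activin and BMP signalling.

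Ligands of this family are secreted as dimers cut from larger precursors and bind pairs of serine/threonine kinase receptors. Activins, Nodal, GDF3 and the TGF-betas lead to phosphorylation of SMAD2 and SMAD3, and BMPs to that of SMAD1 and SMAD5, which in serum-grown embryonic stem cells keeps up the Id genes. Follistatin, the product of Fst, traps activins and, less tightly, some BMPs, and Noggin traps BMPs such as BMP4. SB431542 blocks the type I receptors of activin, Nodal and TGF-beta, and LDN193189 those of BMPs. The 8 transcripts thus encode part of what a culture supplies to itself, alongside what serum and the added factors bring.

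Library totals in the count table were 9571113 to 13512922 read pairs. Those recovered from TPM were 8524110 to 10037099 reads for untreated libraries. For treated libraries they were 4120162 to 5544415 reads over the 12928 shared genes. Hmces was at 598 to 697 TPM in WT and 158 to 245 in HMCES-KO in the count table, at 750.2 to 755 and 160 to 166 in the untreated TPM table, and at 507 to 663 and 143 to 400 in the treated tables, so the genotypes did not overlap in any of these sets and RNA of the gene remained in every knockout library. The 8 pluripotency markers, among them Pou5f1, Nanog and Sox2, were above 0 in all libraries, with a summed level of 9630 to 25252 TPM. Markers of primitive and visceral endoderm summed to 10.6 to 86.7 TPM, with Afp at most at 0.138 and Ttr at most at 0.941 TPM where listed. The 7 fibroblast or feeder markers summed to 12.3 to 63.7 TPM, of which Thy1 made 3.75 to 56.1 and Acta2 at most 27.4, with Postn at 0 and Col1a2 and Col3a1 at most at 0.486 TPM where listed. Of the response genes, Lefty1 and Smad7 were called between activin A and SB431542 in both genotypes. Id1, Id2 and Id3 were called between BMP4 and LDN193189 in both genotypes. Lefty1, a Nodal target and antagonist, was higher in activin A than in SB431542 by 3.45 ± 0.39 (SE) on the log2 scale in WT and by 5.82 ± 0.39 in HMCES-KO (limma, adjusted p = 0.00915 and 1.7e-05). Id1, a BMP target, was higher in BMP4 than in LDN193189 by 1.13 ± 0.15 in WT and by 2.53 ± 0.15 in HMCES-KO (limma, adjusted p = 0.0319 and 4.4e-06). The difference between the genotypes was not called for Lefty1 or Id1 (limma, adjusted p = 0.757 and 0.264). Lefty2 was not called between activin A and SB431542 in WT, at 1.06 ± 0.21 (limma, adjusted p = 0.426). It was called in HMCES-KO, at 2.50 ± 0.21 (limma, adjusted p = 9.62e-05).

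Among the 6 ligand genes described here, the level per length was concentrated in 3 genes. Nodal and other ligands, which are described further below, do not enter the shares and ranks given here. Gdf3, Bmp4 and Inhbb together made up 94.5% to 98.7% of the summed TPM of the 6 ligand genes in each of the 26 libraries. Tgfb1 came next in every library, and Bmp7, Fst and Nog followed at 0.751 to 11.96 TPM in changing order, with Tgfb2 last in 25 libraries and ahead of Nog alone in 1 KO8 library. Among the first 3, Gdf3 led in 22 libraries and Bmp4 led in the other 4. In the count table the WT level of Inhbb lay within the spread of Bmp4, at 231 ± 2.37 and 240 ± 30.7 TPM (mean ± SD, n = 2). Gene lengths behind the treated tables differ from those of the untreated tables, so levels are compared only within each set.

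Gdf3 was the member that rose with loss of HMCES in all 6 tables. Its product is a relative of Nodal and Vg1 made by pluripotent cells, and it has been described both as a Nodal-like ligand that needs the co-receptor Cripto and as an inhibitor of BMPs. Gdf3 (mm10 chr6:122605403-122610087, minus strand) stood at 277 and 312 TPM in the untreated WT libraries of the count table, at 369 and 367 in KO7 and at 337 and 358 in KO8. The untreated TPM table had it at 333 and 324 in WT and at 422 and 410.5 in HMCES-KO. Each knockout library of these tables was above each WT library of its own table.

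The Gdf3 difference in the count table was 0.37 ± 0.06 (log2 fold change ± SE) in KO7 (edgeR quasi-likelihood, adjusted p = 0.000151) and 0.27 ± 0.07 in KO8 (edgeR, adjusted p = 0.00252). Over both lines it was 0.32 ± 0.06 (edgeR, adjusted p = 0.000158). Of the 8 members, 4 were called at an adjusted p under 0.05 in this mean of both lines, against 40.6% of all genes tested, so the number called is close to what the table gives for genes at large. Without the second KO8 library the KO8 value was 0.22 and no longer past the threshold (edgeR, adjusted p = 0.0682). In the untreated TPM table Gdf3 was higher by 0.34 ± 0.04 on the log2(TPM + 1) scale (limma, adjusted p = 0.00529, or 0.0711 with a prior that has no trend). There 2 of 7 members tested were called, against 16% of all genes.

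In treated cells the Gdf3 rise was 0.59 ± 0.04 over the 4 tables (limma, adjusted p = 8.17e-07). That fit took the 8 HMCES-KO libraries as separate, though all come from the lines HMCES-KO1 and HMCES-KO2. In activin A, Gdf3 stood at 788 and 788 TPM in WT and at 1274 and 1288 in the lines HMCES-KO1 and HMCES-KO2, a difference of 0.70 ± 0.08 (limma, adjusted p = 0.000374). In SB431542 it stood at 758 and 764 in WT and at 1294 and 1142 in the lines, a difference of 0.68 ± 0.08 (limma, adjusted p = 0.00043). All 8 treated HMCES-KO libraries held more Gdf3 than all 8 treated WT libraries. In BMP4 the values were 808 and 815 in WT and 1169.6 and 1292 in the lines, a difference of 0.60 ± 0.08 (limma, adjusted p = 0.00209, or 0.0582 with that table fitted alone). In LDN193189 they were 878 and 860.1 in WT and 1216 and 1079 in the lines, a difference of 0.40 ± 0.08 (limma, adjusted p = 0.0282).

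The call for Gdf3 in LDN193189 was the least secure of these. It was lost with the table fitted alone (limma, adjusted p = 0.252), without a trended prior (0.138), and without either WT library of that table (0.136 and 0.188), its HMCES-KO1 library (0.132) or either WT library of the SB431542 table (0.0503 each). The value of the difference was between 0.31 and 0.41 in all of these. Gdf3 was not called between a ligand and its inhibitor within a genotype, with differences of 0.05 ± 0.08 in WT and 0.07 ± 0.08 in HMCES-KO between activin A and SB431542, and of -0.10 ± 0.08 and 0.10 ± 0.08 between BMP4 and LDN193189.

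The rise of Gdf3 went against its surroundings on chromosome 6, which also carries Hmces. Of 90 other genes tested within 5 Mb, 54 were called lower and 1 higher in the mean of both knockout lines in the count table, where 40.6% of all genes were called, with a median of -0.33 against -0.01 for all genes. The exception, named after its values were seen, was Clstn3, at 0.40 ± 0.06 (edgeR, adjusted p = 4.12e-05). In the mean of the treated tables, 33 of 86 neighbours were called lower and 5 higher, where 34.5% of all genes were called, with a median of -0.26 against -0.04 for all genes. In the untreated TPM table the median of the neighbours was -0.06, against -0.06 over all genes. The summed TPM of the 6 neuroectoderm markers was mostly Tubb3, at 145 to 330 TPM in the count table and 567 to 1206 in treated libraries. It thus says little of the other markers, with Pax6 at most at 5.09 and Zic1 at most at 1.25 TPM. The sum of all 6 was higher in HMCES-KO without overlap in each table, as Gdf3 was. It was 175 to 191 TPM in WT against 266 to 381 in the count table and 170.03 to 182 against 220.1 to 247 in the untreated TPM table. In treated cells it was 773 to 782 against 831 to 968 in activin A, 734 to 746 against 828 to 885 in SB431542, 1011 to 1038 against 1219 to 1351 in BMP4 and 963 to 1037 against 1097 to 1296 in LDN193189. The part of these markers in the Gdf3 result was not tested.

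**Figure D1:**
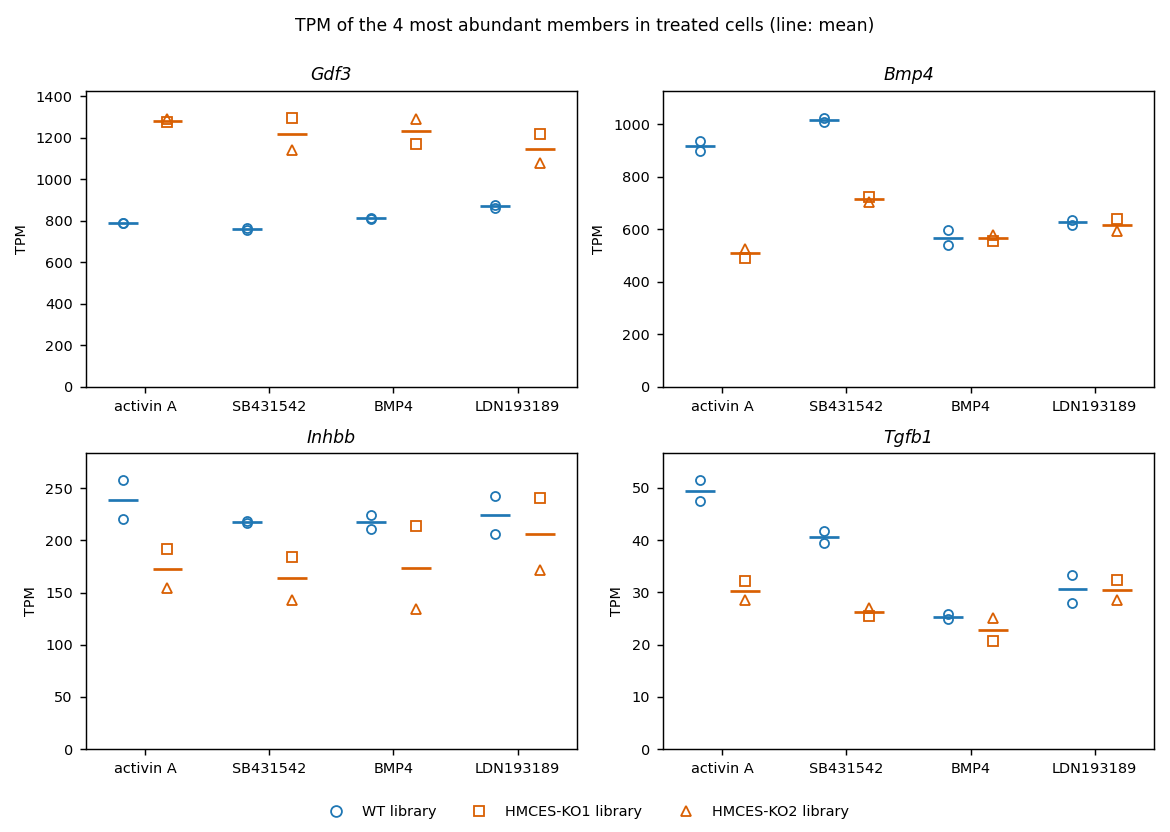
TPM (linear axis from 0) of Gdf3, Bmp4, Inhbb and Tgfb1 in the 16 treated libraries, by treatment. Circles are WT libraries, squares HMCES-KO1, triangles HMCES-KO2 and short lines the mean of 2 libraries. Gdf3 is higher in HMCES-KO under each treatment, while Bmp4, Tgfb1 and Inhbb do not overlap between genotypes in activin A and SB431542. Inhbb was not called there, and with 2 libraries a group lack of overlap is only a description.

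Bmp4, the ligand whose SMAD1 and SMAD5 signal supports self-renewal of these cells in serum, was called lower in knockout cells under 2 of the 4 treatments. In activin A, Bmp4 stood at 935 and 899 TPM in WT and at 492 and 525 in HMCES-KO1 and HMCES-KO2, a difference of -0.85 ± 0.08 (limma, adjusted p = 8.1e-05). In SB431542 it stood at 1024 and 1008 in WT and at 725 and 706 in the lines, a difference of -0.50 ± 0.08 (limma, adjusted p = 0.00164). Knockout and WT libraries did not overlap in either table. In BMP4 the values were 597 and 540.03 in WT and 556 and 577 in the lines, and in LDN193189 they were 636 and 617 in WT and 640.2 and 593 in the lines. There the groups overlapped, and the differences were -0.003 ± 0.077 and -0.02 ± 0.08 (limma, adjusted p = 0.987 and 0.912).

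Of the 8 members, 3 were called in activin A (Gdf3, Bmp4 and Tgfb1) against 12.1% of all genes, the same 3 in SB431542 against 12.1%, and Gdf3 alone in BMP4 against 6.33% and in LDN193189 against 2.29%. Over the mean of the treated tables, 4 of 8 were called against 34.5% of all genes, with Bmp4 at -0.35 ± 0.04 (limma, adjusted p = 2.66e-05). The BMP4 protein added to 1 of the tables does not enter these values, which measure the cells' own transcript.

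Tgfb1, whose product is the TGF-beta that is stored in latent form in the matrix, was called lower in the same tables, at a far lower level. It stood at 51.4 and 47.4 TPM in WT and at 32.2 and 28.5 in HMCES-KO1 and HMCES-KO2 in activin A, a difference of -0.69 ± 0.15 (limma, adjusted p = 0.01). In SB431542 it stood at 41.8 and 39.3 in WT and at 25.5 and 27.1 in the lines, a difference of -0.61 ± 0.15 (limma, adjusted p = 0.0185). In the BMP4 table the values were 25.8 and 24.8 against 20.6 and 25.03, and in the LDN193189 table they were 28.01 and 33.4 against 32.4 and 28.5, with the groups overlapping in both. These levels rest on 103 to 229 reads a library, and the call in activin A was lost without the first WT library (adjusted p = 0.081) or the HMCES-KO2 library (0.0771) of that table, and that in SB431542 without any 1 of its 4 libraries (0.0585 to 0.117).

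The tables were also compared within each genotype. A contrast added after these values had been seen set the activin A and SB431542 tables against the BMP4 and LDN193189 tables. In WT, Bmp4 was higher in the former by 0.69 ± 0.05 and Tgfb1 by 0.67 ± 0.10 (limma, adjusted p = 7.16e-06 and 0.00144), and in HMCES-KO the same differences were 0.03 ± 0.05 and 0.10 ± 0.10 (adjusted p = 0.839 and 0.69). Of all genes 9.61% were called in this contrast in WT, where 3 members were called, and 3.03% in HMCES-KO, where no member was called by limma or edgeR and Fst alone had an unadjusted p under 0.05 (-0.89 ± 0.30, limma, adjusted p = 0.143, or 0.0409 with the line as a replicate block). The difference between the genotypes itself was -0.66 ± 0.08 for Bmp4 (limma, adjusted p = 0.00285, or 0.0548 without a trended prior) and -0.57 ± 0.15 for Tgfb1 (adjusted p = 0.107), and Bmp4 was the 1 member called, against 0.872% of all genes.

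A ligand and its inhibitor are on the same side of that split, and the planned contrasts between them called 1 member in 1 genotype. In HMCES-KO, Bmp4 was lower in activin A than in SB431542 by 0.49 on the log2 scale (-0.49 ± 0.08, limma, adjusted p = 0.0284), the only member called in it, against 0.103% of all genes. That call was lost without a trended prior (adjusted p = 0.383) and without any 1 library of the activin A or SB431542 tables or either WT library of the LDN193189 table (0.0606 to 0.386). In WT the same contrast was -0.15 ± 0.08 for Bmp4 (adjusted p = 1) with no member called by limma or by edgeR on recovered reads, against 0.0159% of all genes. There Fst alone had an unadjusted p under 0.05, at -1.18 ± 0.43 (limma, adjusted p = 1). For Bmp4 the difference between the genotypes was -0.34 ± 0.11 (unadjusted p = 0.00756, adjusted p = 1). Between BMP4 and LDN193189 no member was called in WT, against 0.0317% of all genes, or in HMCES-KO, against 0.0238%, by limma or by edgeR on recovered reads, and 0 and 1 of the 8 were at an unadjusted p under 0.05. In that HMCES-KO contrast the member was Tgfb1, at -0.40 ± 0.15. In both interactions of genotype and treatment 0% of all genes were called by limma, and no member was called by edgeR on recovered reads.

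Treatment and table are the same split, so a response to the agents and a difference between batches of cells or libraries cannot be told apart here. Trophectoderm markers, 7 of 8 listed, summed to 166 to 181 TPM in WT in the activin A and SB431542 tables and to 79.6 to 95.8 in the BMP4 and LDN193189 tables, and to 119 to 162 and 69.2 to 127 in HMCES-KO, with Elf5, a defining marker, not listed there. Over the treated libraries Tfap2c was at 17.8 to 64.9 TPM, Krt8 at 19.6 to 52.8, Krt18 at 16.1 to 55.97 and Cdx2 at most at 14.2. Endoderm markers, 9 of 11 listed, summed to 32.1 to 42.5 against 61.2 to 86.7 TPM in WT and to 17.9 to 22.8 against 36.4 to 58.6 in HMCES-KO. Their part in the Bmp4 and Tgfb1 results was not tested, and fewer cells of a type and less RNA per cell cannot be told apart in such bulk libraries. Within 5 Mb of Bmp4, 14 of 39 other genes were called lower and 5 higher over the treated tables, where 34.5% of all genes were called, with a median of -0.26 against -0.04 for all genes.

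The stretches before the start of Bmp4 and of Tgfb1, the members called lower in the same treated tables, are shown 5′ to 3′ on the strand of the gene, from RefSeq on GRCm38.p6. Each is the 250 bases before the start site, at chr14:46390670-46390919 on the minus strand for Bmp4 and chr7:25686752-25687001 on the plus strand for Tgfb1. Capitals mark AGAC and its reverse complement GTCT, the core that SMAD3 and SMAD4 can bind.
Bmp4: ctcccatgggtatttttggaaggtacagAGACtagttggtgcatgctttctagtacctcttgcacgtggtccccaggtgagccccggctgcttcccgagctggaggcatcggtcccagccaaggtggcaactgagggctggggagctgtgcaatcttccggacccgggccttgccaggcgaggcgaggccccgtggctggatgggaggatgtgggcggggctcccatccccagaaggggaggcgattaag
Tgfb1: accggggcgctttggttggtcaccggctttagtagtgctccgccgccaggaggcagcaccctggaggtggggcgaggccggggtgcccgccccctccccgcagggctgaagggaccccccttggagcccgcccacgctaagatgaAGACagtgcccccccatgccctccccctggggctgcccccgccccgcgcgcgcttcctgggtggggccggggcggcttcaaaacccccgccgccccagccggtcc
Each window holds AGAC or GTCT 1 time, and 82.9% of 32851 windows of this length before RefSeq starts hold it 1 or more times, so its presence does not set these apart from other promoters. The GC-rich motif GGCGCC, which BMP-activated SMADs can bind and which reads the same on both strands, is in neither of them and is in 9.59% of all windows. Their GC content is 63.2% for Bmp4 and 75.2% for Tgfb1, against a median of 52.4%. The table of promoters held 4 of the 8 members, the others being Inhbb (2 matches to AGAC or GTCT) and Tgfb2 (3 matches).

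**Figure D2:**
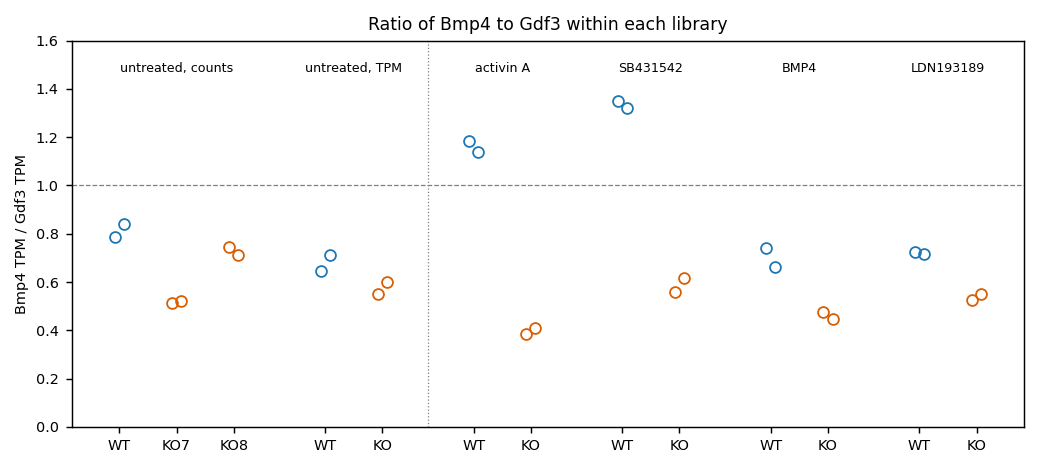
Ratio of Bmp4 TPM to Gdf3 TPM (linear axis from 0, dashed line at 1) in each of the 26 libraries, by table and genotype, with a dotted line between untreated and treated tables, blue for WT and orange for HMCES-KO. The 4 WT libraries of activin A and SB431542 lie between 1.14 and 1.35, the other 12 treated libraries between 0.386 and 0.739, and the 10 untreated libraries, which rest on other gene lengths and are read on their own, between 0.511 and 0.839.

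The balance of Bmp4 to Gdf3 puts both patterns into 1 number per library. Among treated libraries Bmp4 exceeded Gdf3 in the 4 WT libraries of the activin A and SB431542 tables, with ratios of 1.14 to 1.35, and was below it in the other 12, at 0.386 to 0.739. Among the 10 untreated libraries, whose ratios rest on other gene lengths, it was below Gdf3 in all, at 0.511 to 0.839. In each of the 6 tables every HMCES-KO library had a lower ratio than every WT library. Gdf3 was higher in HMCES-KO in all 6, while the genotypes overlapped in Bmp4 in 3 tables. In the untreated TPM table Bmp4 was higher in HMCES-KO. The ratio is thus a description of values already given and no support apart from them. The summed TPM of the 6 ligand genes was 1958 to 2045 in WT and 1991 to 2233 in HMCES-KO in the activin A and SB431542 tables. It was higher in HMCES-KO without overlap in BMP4, at 1593 to 1657 in WT and 1965 to 2031 in HMCES-KO, and in LDN193189, at 1719 to 1787 and 1875 to 2130.0. In the count table it was 766 to 848 in WT and 797 to 846 in the knockout lines.

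In untreated cells Bmp4 differed between the lines. Bmp4 (mm10 chr14:46383525-46390669, minus strand) stood at 218 and 261 TPM in WT, at 189 and 192 in KO7 and at 251 and 255 in KO8. It was lower in KO7 by 0.29 on the log2 scale (-0.29 ± 0.07, edgeR, adjusted p = 0.00455) and was at 0.11 ± 0.07 in KO8 (edgeR, adjusted p = 0.245), and the lines differed by 0.40 ± 0.07 (edgeR, adjusted p = 0.000364). The WT libraries lay far apart, and the calls changed with them. Without the first WT library the mean of both lines was called lower (-0.23, adjusted p = 0.000263), without the second KO8 was called higher (0.27, adjusted p = 6.1e-05), and without the first KO7 library the KO7 call was lost (-0.27, adjusted p = 0.0758). Bmp4 in the untreated TPM table stood at 214 and 230.4 in WT and at 233 and 246 in HMCES-KO, a difference of 0.11 ± 0.05 (limma, adjusted p = 0.216, or 0.0194 with edgeR on recovered reads). Bmp4 shares its locus with Gm15217 on the opposite strand, and since no strand setting is given for the counting, their reads cannot be told apart where they overlap. Gm15217 itself had 5 to 12 counts a library in the count table. Trophectoderm markers moved with the difference between the lines in Bmp4 and in Tgfb1. Their sums were 83.2 to 83.7 TPM in WT, 68.7 to 73.1 in KO7 and 165 to 168 in KO8. Of these sums Tfap2c made 49.1 to 122 TPM, while Cdx2 was at most at 1.88 and Elf5 at most at 0.129. The part of these markers in the difference between the lines was not tested.

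Tgfb1 (mm10 chr7:25687002-25705077, plus strand) stood at 29.6 and 32.9 TPM in untreated WT, at 18.2 and 17.97 in KO7 and at 24.7 and 24.96 in KO8. The difference was -0.74 ± 0.12 in KO7 (edgeR, adjusted p = 8.62e-05) and -0.30 ± 0.12 in KO8 (edgeR, adjusted p = 0.0573, or 0.0201 without the first WT library). Over both lines it was -0.52 ± 0.10 (edgeR, adjusted p = 0.000496, or 0.0922 with the knockout libraries as 1 group). Fibroblast or feeder markers had the same order of groups, with sums of 63.3 to 63.7 TPM in WT, 18.2 to 18.9 in KO7 and 30.4 to 32.6 in KO8, and their part in the Tgfb1 result was not tested. In the untreated TPM table the libraries overlapped, at 23.2 and 18.3 in WT and 22.2 and 19.7 in HMCES-KO, with a difference of 0.02 ± 0.14 (limma, adjusted p = 0.936). Tgfb1 was thus called lower in 1 set of untreated libraries and not called in the other.

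**Figure D3:**
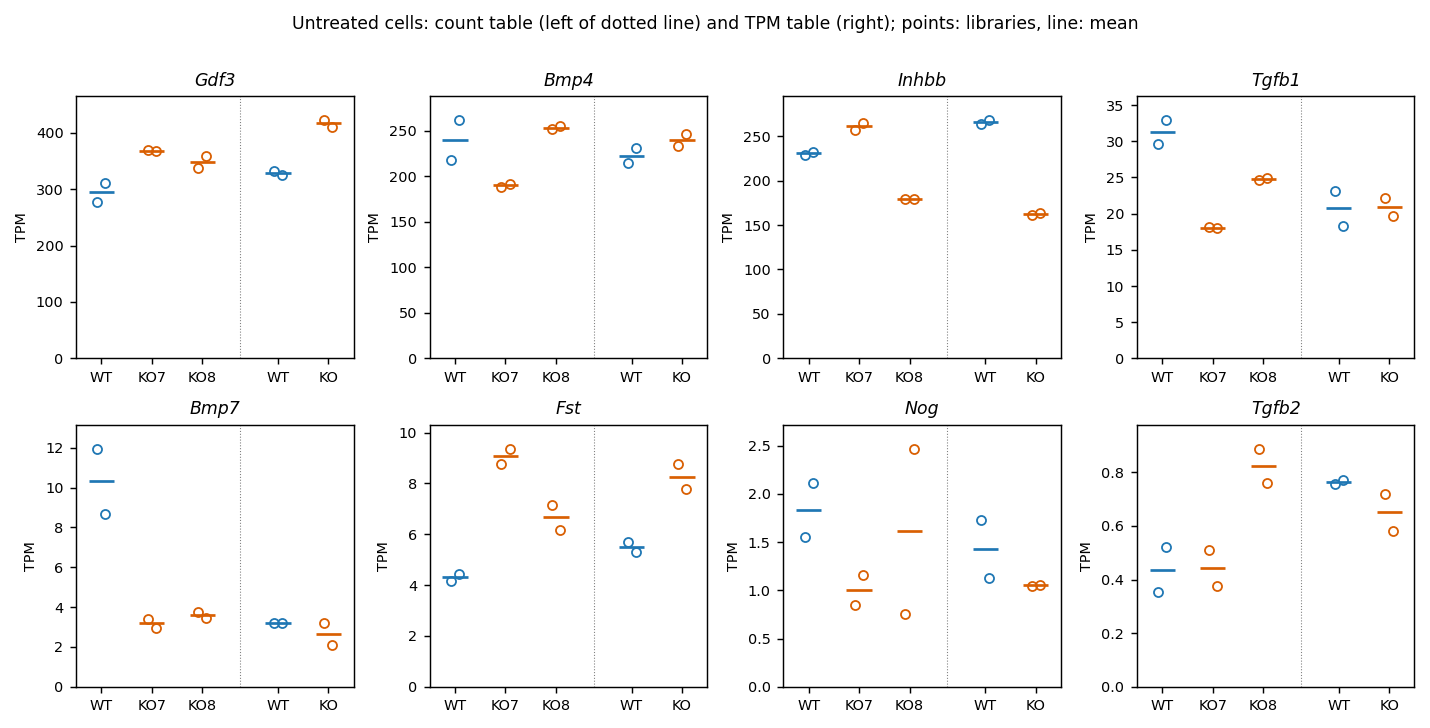
TPM (linear axes from 0, 1 panel a gene) of the 8 members in untreated libraries. Left of the dotted line are WT, KO7 and KO8 of the count table, right of it WT and HMCES-KO of the TPM table, with points for libraries and short lines for means. Gdf3 and Fst are higher in HMCES-KO in both tables, Bmp7 is high only in WT of the count table, and Inhbb separates KO7 from KO8.

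Inhbb differed between the knockout lines. It encodes the beta-B subunit, whose dimer is activin B, and with the gene for the alpha subunit, Inha, it can give inhibin B. Inhbb (mm10 chr1:119415463-119422248, minus strand) stood at 229 and 233 TPM in untreated WT, at 257 and 265 in KO7 and at 179.7 and 179 in KO8. It was higher in KO7 by 0.22 ± 0.05 (edgeR, adjusted p = 0.00223, or 0.0527 without the second KO7 library) and lower in KO8, at -0.33 ± 0.05 (edgeR, adjusted p = 5.99e-05). The 2 changes ran in opposite directions, and KO8 against KO7 was at -0.55 ± 0.05 (edgeR, adjusted p = 1e-07).

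In KO7, 6 of 8 members were called, against 38.2% of all genes, in KO8, 4 of 8, against 38.9%, and between the lines 3 of 8 (Bmp4, Tgfb1 and Inhbb), against 28.2%. The difference between the lines in Tgfb1, 0.44 ± 0.13 (edgeR, adjusted p = 0.0129), was no longer called with DESeq2 (0.0898) or without any 1 of the 4 knockout libraries (0.0626 to 0.0876). Inhbb in the untreated TPM table stood at 263 and 268 TPM in WT and at 161 and 164 in HMCES-KO, a difference of -0.71 ± 0.04 (limma, adjusted p = 0.000887).

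In the treated tables the line HMCES-KO2 held less Inhbb than HMCES-KO1 under each treatment. The values for HMCES-KO1 and HMCES-KO2 were 192 and 154 TPM in activin A, 184 and 143 in SB431542, 214 and 134 in BMP4 and 240.3 and 171 in LDN193189. The difference between the lines was -0.46 ± 0.08 (limma, paired by treatment, adjusted p = 0.0125), and Inhbb was the 1 member called there, against 4.62% of all genes. The call was lost without the pairing (adjusted p = 0.0518), without the trended prior (0.138) and without either HMCES-KO library of the BMP4 table (0.0748 and 0.0713). Treated WT libraries held 206 to 258 TPM. In activin A (220 to 258) and SB431542 (216 to 219) each WT library was above both knockout lines, and in BMP4 and LDN193189 the genotypes overlapped.

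Against WT, Inhbb was at -0.35 ± 0.10 over the treated tables (limma, adjusted p = 0.0208), and this call was lost without the first WT library of the activin A table (adjusted p = 0.0517) or of the LDN193189 table (0.052), or without the HMCES-KO2 library of activin A (0.05) or SB431542 (0.0509). Within single tables it was at -0.47 ± 0.21 in activin A, -0.42 ± 0.21 in SB431542, -0.36 ± 0.21 in BMP4 and -0.14 ± 0.21 in LDN193189 (limma, adjusted p = 0.169, 0.221, 0.34 and 0.787). Because each treated knockout group holds 1 library of each line, the difference between the lines enters this spread. With the line as a replicate block the first 3 of these were called (adjusted p = 0.00724, 0.0123 and 0.0384).

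Bmp7 was the member with the largest change in any genotype contrast. Its product forms dimers with itself or with BMP4 and signals through SMAD1 and SMAD5. Bmp7 (mm10 chr2:172868012-172940321, minus strand) stood at 11.96 and 8.69 TPM in the WT libraries of the count table, from 191 and 118 counts, and at 2.97 to 3.78 TPM in the 4 knockout libraries, from 39 to 61 counts. The difference was -1.65 ± 0.20 in KO7 and -1.49 ± 0.20 in KO8 (edgeR, adjusted p = 2.18e-06 and 8.04e-06), and it was called under every alternative run on it.

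In the untreated TPM table no change was called. Bmp7 stood at 3.21 and 3.20 TPM in its WT libraries and at 3.22 and 2.11 in HMCES-KO, a difference of -0.21 ± 0.22 (limma, adjusted p = 0.547), so its WT level was that of the knockout lines in the count table. In the treated tables Bmp7 ranged from 1.18 to 5.43 TPM, from 8 to 38 reads, and was called in none of them. In the count table, 10 of 11 endoderm markers were above 0 in WT, with a sum of 64.0 to 72.6 TPM, against 23.7 to 23.9 in KO7 and 10.6 to 12.8 in KO8, while KO8 minus KO7 for Bmp7 was 0.16 ± 0.24 (edgeR, adjusted p = 0.671). In the untreated TPM table the sums were 21.8 to 22.2 in WT and 17.1 to 17.4 in HMCES-KO, and in the treated tables they were lower in HMCES-KO under each treatment, where Bmp7 was not called. Fibroblast or feeder markers, mostly Thy1, were also lower in the knockout lines of the count table, with the sums given for Tgfb1. The part of these markers in the Bmp7 result was not tested.

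Of the antagonists, Fst was higher in untreated knockout cells. Fst (mm10 chr13:114452262-114458951, minus strand) stood at 4.18 and 4.44 TPM in WT of the count table, at 8.76 and 9.37 in KO7 and at 7.17 and 6.17 in KO8, from 47 to 123 counts. The difference was 1.12 ± 0.20 in KO7 (edgeR, adjusted p = 0.000155) and 0.66 ± 0.21 in KO8 (edgeR, adjusted p = 0.0171). The call in KO8 was lost with DESeq2 (adjusted p = 0.0998) and without the first WT library (0.0679) or the first KO8 library (0.131). Fst in the untreated TPM table stood at 5.70 and 5.29 in WT and at 8.75 and 7.77 in HMCES-KO, a difference of 0.51 ± 0.15 (limma, adjusted p = 0.0696, or 0.0237 with edgeR on recovered reads).

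In treated cells Fst was the member with the widest range, from 1.23 TPM in WT in activin A to 10.9 in HMCES-KO1 in BMP4, but on 5 to 50 reads a library. The values in activin A were 1.23 and 1.24 in WT and 3.80 and 1.85 in HMCES-KO1 and HMCES-KO2, and under the other treatments the genotypes overlapped. No genotype contrast called it, with 0.38 ± 0.22 over the 4 tables (limma, adjusted p = 0.194). HMCES-KO2 was below HMCES-KO1 under each of the 4 treatments, by -0.76 ± 0.19 on the log2 scale (limma, adjusted p = 0.0562). In the contrast added after the values had been seen, WT cells held less Fst in the activin A and SB431542 tables than in the BMP4 and LDN193189 tables, at -1.05 ± 0.30 (limma, adjusted p = 0.0464), a call lost without any 1 of 7 of the 8 WT libraries (0.0501 to 0.172), without the trended prior (0.0691) and with edgeR on recovered reads (0.05). Over the 16 treated libraries, which share their tables and treatments, the genes most like Fst in log2(TPM + 1) were Cdt1, Mdk and Fbxl4, with Pearson r of 0.863, 0.861 and 0.85, given as a description.

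Nog and Tgfb2 were near the limit of detection. Nog (mm10 chr11:89300638-89302559, minus strand) had 5 to 18 reads in each untreated and 5 to 21 in each treated library, or 0.751 to 6.91 TPM, and the largest genotype difference was -0.83 ± 0.54 in KO7 (edgeR, adjusted p = 0.244). Tgfb2 (mm10 chr1:186622792-186705989, minus strand) had 7 to 16 reads in untreated and 0 to 14 in treated libraries, and it was at 0 in both WT libraries of the activin A table. The 3 highest treated values, 1.67, 1.07 and 0.754 TPM, were all in HMCES-KO2. It passed the filter of 1 TPM in 2 libraries in treated cells only through 2 of these, so tests of Tgfb2 there are not read, and in the untreated TPM table it did not pass. No difference in Nog in any table, or in Tgfb2 in the count table, was detectable at this depth.

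**Figure D4:**
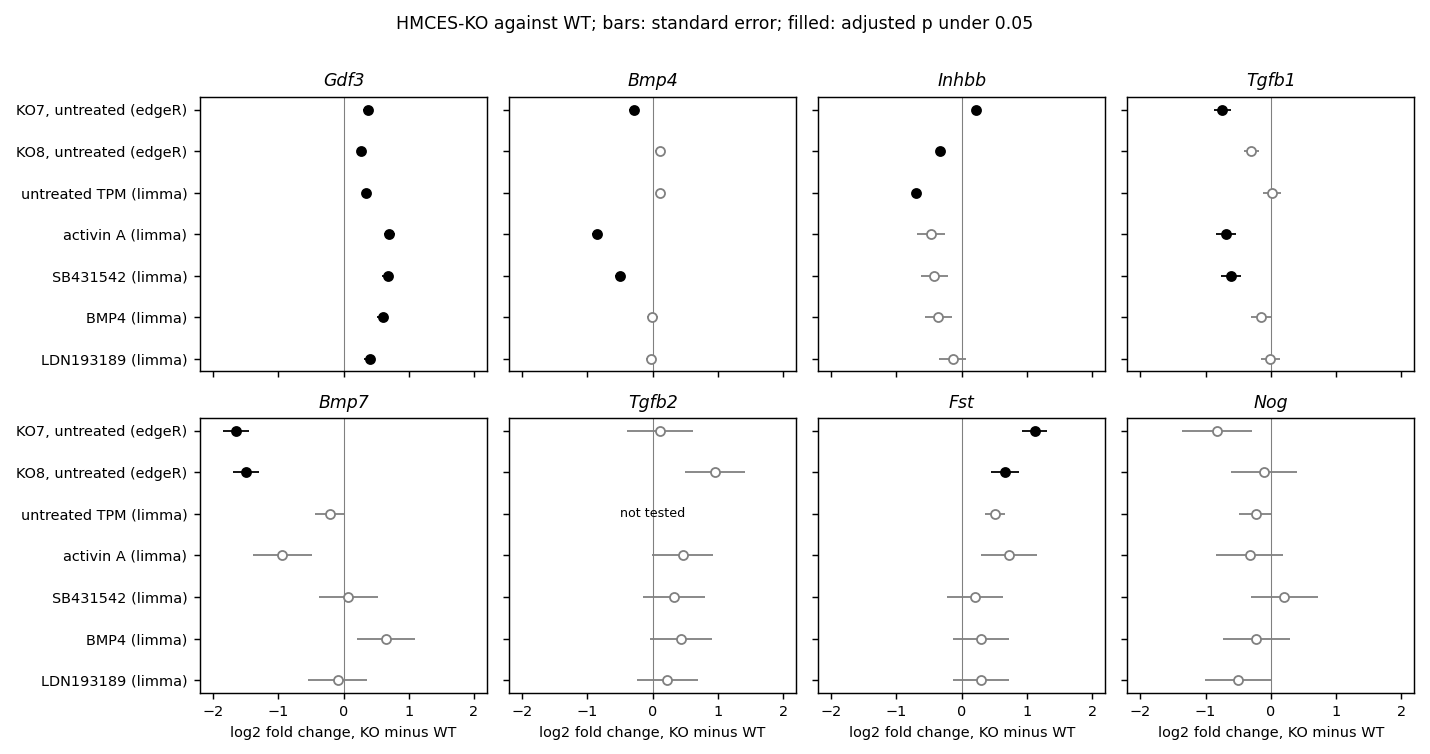
Log2 fold change of HMCES-KO against WT for the 8 members in 7 contrasts, with bars for the standard error. Filled points have an adjusted p under 0.05 in edgeR (count table) or limma (TPM tables). Gdf3 lies right of 0 and is filled in all 7, from 0.27 to 0.70, and the other members are filled in some contrasts or in none, with the treated values of Tgfb2 shown but not read.

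**Figure D5:**
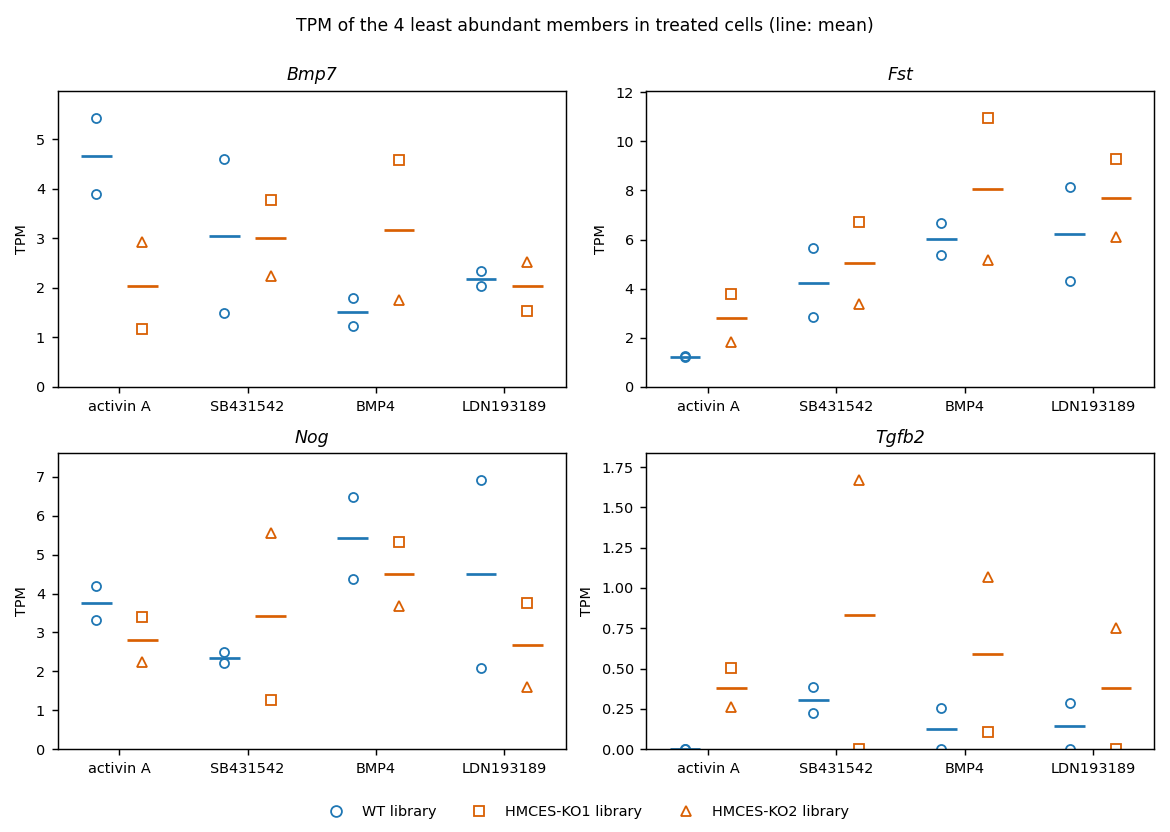
TPM (linear axis from 0) of Bmp7, Fst, Nog and Tgfb2 in the 16 treated libraries, with symbols as for the 4 most abundant members. Values rest on 0 to 50 reads, genotypes overlap in most panels, and Fst is lowest in activin A.

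The wider supply chain was read from lists of other family genes. Of 24 other ligand genes, 8 passed the count filter in the count table and 2 were called lower over both knockout lines, Inha (-0.80 ± 0.25) and Bmp6 (-0.97 ± 0.33) (edgeR, adjusted p = 0.0139 and 0.0255), with a median of -0.40 against -0.01 for all genes and 40.6% of all genes called. Both passed the threshold in KO8, at -1.36 ± 0.32 and -1.45 ± 0.43 (edgeR, adjusted p = 0.00215 and 0.0111), and not in KO7, at -0.25 ± 0.27 and -0.49 ± 0.36 (adjusted p = 0.508 and 0.307), and of these Inha was also called between the lines. Inha was also lower in the untreated TPM table, at -0.88 ± 0.22 (limma, adjusted p = 0.047), where it was the 1 gene of 8 tested in the list that was called, against 16% of all genes. Nodal, the ligand of the early embryo, was at 154 to 179 TPM in untreated libraries, and it was called lower in the mean of the treated tables, at -0.16 ± 0.05 (limma, adjusted p = 0.0181). There 12 of the 24 were tested, with Nodal and Bmp8b lower and Gdf1 and Amh higher, against 34.5% of all genes called, and Gdf1, a partner that forms dimers with Nodal, was at 0.62 ± 0.11 (limma, adjusted p = 0.000824).

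Among 20 other secreted antagonists, Lefty1 changed in opposite directions in the untreated tables. Lefty1 stood at 118 to 122 TPM in WT and at 68.9 to 84.2 in the knockout lines of the count table, a difference of -0.63 ± 0.07 (edgeR, adjusted p = 4.79e-07). In the untreated TPM table it stood at 90.6 to 94.4 in WT and at 283 to 310.2 in HMCES-KO, a difference of 1.67 ± 0.06 (limma, adjusted p = 0.000227). Of the 10 genes of this list tested in the count table, 2 were higher (Fstl1 and Tsku) and 4 lower (Lefty1, Lefty2, Fstl3 and Crim1), against 40.6% of all genes called. Lefty2 was called higher in KO7, at 0.27 ± 0.07, and lower in KO8, at -0.71 ± 0.07 (edgeR, adjusted p = 0.00282 and 1.83e-07). Of 10 in the untreated TPM table, Lefty1 and Lefty2 were higher and none lower, against 16% of all genes called. In the mean of the treated tables Twsg1, which encodes a binding partner of BMPs and chordin, was the 1 gene of 11 called, where 34.5% of all genes were, at -0.58 ± 0.13 (limma, adjusted p = 0.00416). In activin A alone, Lefty1 and Lefty2 were called higher in HMCES-KO and Twsg1 lower, against 12.1% of all genes. None of the 11 was called in SB431542, BMP4 or LDN193189, against 12.1%, 6.33% and 2.29%.

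Of 8 genes for co-receptors and the decoy receptor, Tdgf1, which encodes Cripto, the co-receptor of Nodal and GDF3, was lower over both knockout lines in the count table, at -0.54 ± 0.07 (edgeR, adjusted p = 4.31e-06), and higher over the treated tables, at 0.78 ± 0.14 (limma, adjusted p = 0.00095). In these sets 6 and 5 genes of the list were tested, with 1 higher (Rgma) and 1 lower in the count table and 3 higher (Tdgf1, Rgma and Bambi) in the treated tables, against 40.6% and 34.5% of all genes called. Tdgf1 thus went the opposite way to Gdf3 in the count table and the same way in treated cells. In the untreated TPM table Tdgf1 was at 0.12 ± 0.04 and was not called (limma, adjusted p = 0.0979). Of 17 genes for ligand processing and latency, 11 were tested in the count table, with Furin, Pcsk6 and Ltbp3 lower and Tll1 higher, against 40.6% of all genes called. Furin, a convertase that cuts ligand precursors, was at -0.34 ± 0.08 (edgeR, adjusted p = 0.00289). None of 11 was called over the treated tables, where 34.5% of all genes were. Of 9 tested in the untreated TPM table, only Itgav was called, against 16% of all genes. Its difference was 0.57 ± 0.11 (limma, adjusted p = 0.0214).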

How the data were processed

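RNA was measured by RNA-seq in 26 libraries. The count table, deposited by the authors, holds read pairs per gene from featureCounts 2.0.1 on an mm10 gene annotation, per the file headers, with no strand option given. The other 5 tables, deposited by the authors, hold TPM values. Bowtie2 2.3.3, SAMtools 1.9 and FastQC 0.11.5 are named in the submitters' processing notes.

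Counts were tested with edgeR 4.0.16 (quasi-likelihood, TMM scaling, low-count filter, 3 groups of 2). TPM of the count table was computed from its counts and gene lengths. Deposited TPM was tested with limma 3.58.1 (trended prior) on log2(TPM + 1), keeping genes at 1 TPM or more in 2 libraries. Fold changes on that scale understate the change of low genes. The 16 treated libraries were fitted together, 8 groups of 2, after rescaling to the 12928 shared genes, with 12608 tested. Values were called at a Benjamini-Hochberg adjusted p under 0.05 over all genes. All (100%) TPM values gave whole reads within 0.01, and edgeR on those reads was an alternative, as were DESeq2 1.42.0, other scalings, filters and pseudocounts, a replicate block and leaving out each library. The fits were tested on simulated data.

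Libraries sharing an HMCES-KO line deviated together across treatments (r from 0.316 to 0.424 in 6 pairs). WT numbers did not (-0.02 to 0.04). The mean of the treated tables took the HMCES-KO libraries as separate. Standard errors and p-values given for that mean thus do not allow for the sharing of lines. No label says that replicates are separate cultures, so p-values measure the spread between these libraries. Lack of overlap between groups of 2 libraries is a description and not a test. The share of all genes without overlap is not given here. The members, gene lists and tests were chosen with earlier results of these data known. All 8 members are named, and other family genes come from 4 lists.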

Additional observations from a re-analysis of the deposited data

Results flagged for a closer look

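Differences between the knockout lines were called for 3 of 8 members in untreated cells, against 28.2% of all genes. KO8 minus KO7 was 0.40 on the log2 scale for Bmp4, -0.55 for Inhbb and 0.44 for Tgfb1, each past the threshold of edgeR in a test of the difference itself. As given above, the Tgfb1 call was lost with DESeq2 and when single knockout libraries were left out.

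In treated cells the lines differed in Inhbb, with HMCES-KO2 minus HMCES-KO1 at -0.46 (limma, paired by treatment). For Bmp4 the difference between the activin A and SB431542 tables and the BMP4 and LDN193189 tables was itself different between genotypes, at -0.66 for HMCES-KO minus WT, in a contrast chosen after the values had been seen.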

How the results depend on the processing

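Over 159 member results, 2822 alternatives left 2637 on the same side of the threshold with the same direction, and no called result changed sign. Calls were lost in 56 and gained in 11, and in the remaining 118 the sign of a difference that was not called changed, over 56 results. Of 37 called results 21 kept the call under each alternative run on them. The number of members called in the untreated TPM table went from 2 to 1 without a trended prior and to 4 with edgeR on recovered reads. In the BMP4 table it went from 1 to 2 with the line as a replicate block and to 0 with the table fitted alone. In LDN193189 it went from 1 to 0 without the trend and with the table alone, and lay between 0 and 1 when single libraries were left out. For activin A against SB431542 in HMCES-KO it went from 1 to 0 without the trend, with 0 to 1 when single libraries were left out. The added contrast between tables went from 0 to 1 in HMCES-KO with the replicate block, and from 1 to 0 for the genotype difference without the trend. Between HMCES-KO2 and HMCES-KO1 it went from 1 to 0 without the trend and with no replicate block, and lay between 0 and 1 when single libraries were left out.

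Counts over all genes moved too. DESeq2 called 3593, 3318, 3290 and 2301 genes where edgeR called 5476, 5149, 5248 and 3797 (mean of both lines, KO7, KO8 and KO8 against KO7), and 1552 were called with the knockout libraries as 1 group. The untreated TPM table went from 2128 genes to 1311 with no filter, 339 without the trend and 3587 with edgeR. BMP4 went from 798 to 443 without the trend, 1353 with the replicate block and 39 alone, and LDN193189 from 289 to 86, 703 and 1. Activin A against SB431542 went from 2 to 1 in WT with a pseudocount of 0.1 and to 0 without the trend, and from 13 to 3 in HMCES-KO without the trend. BMP4 against LDN193189 went from 4 to 0 in WT without the trend, from 3 to 5 in HMCES-KO with edgeR, and from 0 to 1 in the interaction with edgeR. The added contrast went from 382 to 222 without the trend and 868 with the block in HMCES-KO, and from 110 to 18 and 357 for the genotype difference. Between HMCES-KO2 and HMCES-KO1 it went from 570 to 27 without the trend and 266 with no block. When single libraries were left out, the count over all genes was 3088 to 6036 in KO7, 3230 to 6186 in KO8, 2012 to 5090 between them, 619 to 2418 in the untreated TPM table, 508 to 1781 in activin A, 439 to 1784 in SB431542, 133 to 1085 in BMP4 and 18 to 493 in LDN193189. It was 629 to 1387 (from 1211) for the added contrast in WT, 153 to 727 in HMCES-KO, 7 to 214 for the genotype difference and 204 to 467 between HMCES-KO2 and HMCES-KO1. In the contrasts of a ligand with its inhibitor it was 0 to 12, so the shares of all genes called, given beside the members, are those of the full set of libraries. Depth limits Bmp7, Fst, Nog and Tgfb2 in treated cells, which had at most 50 reads a library.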
